A study of Mus musculus with 72 samples.

Results

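The regions described here are the 4033 H3K27me3 peaks that were listed in vehicle-treated CD8+ T cells at 48 h and shared no base with a peak listed after CB-839, after DON or in glutamine-free medium. They were chosen from the 4 deposited H3K27me3 peak lists by that rule alone, and they are 29.8% of the 13556 vehicle peaks. They covered 10.0 Mb, or 15.4% of the 65.0 Mb in vehicle peaks. The mark was measured by CUT&RUN, in which an antibody directs a nuclease to cut out the DNA around a histone mark. Each list held broad peaks merged from 2 replicates and kept at an irreproducible discovery rate (IDR) of 0.05, so no list gives a replicate-level difference between treatments. The presence or absence of a peak, its width and its signal are therefore described without a test.

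All cells were OT-I, that is CD8+ T cells carrying a transgenic receptor for the ovalbumin peptide SIINFEKL, and they came from spleen cultures with the red cells lysed. Every group except the unstimulated one was activated with 10 ng/mL of the peptide and 100 IU/mL of human IL-2. CB-839, an inhibitor of glutaminase, and DON, a glutamine analogue that blocks many glutamine-using enzymes, were each used at 1 µM. The glutamine-free group was grown in RPMI medium lacking glutamine. One vehicle group stands for the 2 solvents, DMSO and PBS. RNA-seq was made in 4 libraries per group from unstimulated cells and at 4 h, 24 h and 48 h, whereas CUT&RUN was made at 48 h only. The labels give no age, sex or number of mice, and whether the 4 lettered replicates are different mice or cultures is not stated. The p-values therefore rest on library-to-library spread alone, which may be technical. RNA libraries held 25626587 to 51005409 counts. Vehicle replicate C at 48 h stood apart: its counts differed from those of the other vehicle libraries by a chi-square per degree of freedom of 73.7 to 155.4, against 7.6 to 25.7 among the others and at most 39.2 in other groups. It is a control in every RNA comparison, and counts without it are given beside the results. All 7 CD8 T-cell markers were detected in the unstimulated and 48 h groups, with summed levels of 2965 to 3279 CPM (counts scaled to library size) with vehicle and 2074 to 2214 CPM in glutamine-free medium. Cd4 stayed at or below 0.27 CPM in these libraries.

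H3K27me3 is the trimethyl mark placed on histone H3 by Polycomb repressive complex 2, whose catalytic subunit is EZH2 or EZH1, and removed by the demethylases KDM6A and KDM6B. Polycomb repressive complex 1 binds the mark through its CBX subunits and compacts chromatin with its PHC subunits. In many cell types the mark lies over CpG-rich promoters of developmental regulators, and in T cells it also covers genes of lineages and states that the cell does not use.

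Upstream sequences are shown for 6 genes with a RefSeq start site inside a peak listed only with vehicle, because their RNA changed with a treatment. They have the largest changes among the genes named by size of change whose 250 bases hold at most 30 bases of annotated exon. Each is the 250 bases before a RefSeq start site (GRCm38.p6, the assembly that mm10 names), read 5′ to 3′ on the gene's strand. Capitals mark CG dinucleotides, and all 250 bases lay inside a vehicle-only peak in each case. The first 4 precede a start within 20 bases of the outermost annotated one, while those of Sh2b2 and Agrn precede internal starts.
Adarb1: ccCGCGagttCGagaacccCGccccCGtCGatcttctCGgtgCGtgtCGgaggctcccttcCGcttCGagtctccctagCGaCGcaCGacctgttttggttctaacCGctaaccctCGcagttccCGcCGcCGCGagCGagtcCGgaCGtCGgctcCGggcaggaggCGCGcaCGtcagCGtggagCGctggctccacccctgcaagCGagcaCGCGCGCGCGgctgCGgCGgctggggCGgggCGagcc
Gng7: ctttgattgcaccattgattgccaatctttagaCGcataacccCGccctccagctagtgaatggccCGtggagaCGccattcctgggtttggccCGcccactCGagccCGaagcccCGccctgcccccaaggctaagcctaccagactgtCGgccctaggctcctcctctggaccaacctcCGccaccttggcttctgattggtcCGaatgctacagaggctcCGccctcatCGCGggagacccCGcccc
Slc15a2: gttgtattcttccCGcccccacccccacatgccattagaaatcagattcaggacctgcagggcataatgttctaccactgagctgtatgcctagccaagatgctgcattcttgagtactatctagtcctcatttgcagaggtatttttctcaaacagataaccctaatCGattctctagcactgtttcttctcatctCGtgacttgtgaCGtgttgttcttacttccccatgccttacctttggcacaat
Plaur: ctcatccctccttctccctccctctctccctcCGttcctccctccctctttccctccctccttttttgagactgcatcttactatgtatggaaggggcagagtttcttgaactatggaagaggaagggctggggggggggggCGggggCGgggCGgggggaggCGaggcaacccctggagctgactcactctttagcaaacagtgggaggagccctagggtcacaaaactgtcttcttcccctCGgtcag
Sh2b2: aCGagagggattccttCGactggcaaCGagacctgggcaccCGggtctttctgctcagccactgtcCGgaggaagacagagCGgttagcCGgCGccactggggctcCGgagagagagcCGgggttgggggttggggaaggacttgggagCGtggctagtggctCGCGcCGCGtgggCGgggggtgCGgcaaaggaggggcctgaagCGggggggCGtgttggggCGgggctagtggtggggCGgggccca
Agrn: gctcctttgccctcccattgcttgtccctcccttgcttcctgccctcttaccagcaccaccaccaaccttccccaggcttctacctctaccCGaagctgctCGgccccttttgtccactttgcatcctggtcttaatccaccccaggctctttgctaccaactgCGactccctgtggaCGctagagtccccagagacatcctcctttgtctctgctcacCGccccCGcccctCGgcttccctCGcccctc
They lie at chr10:77418274-77418523 (Adarb1, minus strand), chr10:81014926-81015175 (Gng7, minus strand), chr16:36784963-36785212 (Slc15a2, minus strand), chr7:24462233-24462482 (Plaur, plus strand), chr5:136244941-136245190 (Sh2b2, minus strand) and chr4:156186260-156186509 (Agrn, minus strand). The Adarb1 sequence held 40 CG dinucleotides and the Sh2b2 sequence 21. Gng7 held 15, Agrn 8, Plaur 6 and Slc15a2 4, so the 6 sequences range from CpG-rich to CpG-poor. Agrn had 2 vehicle-only peaks, one over its outermost start (chr4:156193777-156197488) and one over the sequence shown (chr4:156185577-156188423).

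Over all RefSeq start sites, 224 windows of 300 bases (250 before to 50 after the start) lay wholly inside these peaks, from 196 genes. Their median GC content was 53%, with a median of 6 CG dinucleotides. All 32817 promoter windows had medians of 52.7% and 7. The 1545 windows inside vehicle peaks that were overlapped in all 3 treated lists had medians of 60.7% and 16. By a definition of at least 50% GC and an observed to expected CpG ratio of at least 0.6, 25% of the vehicle-only windows were CpG-dense. The share was 49.7% in the peaks overlapped in all lists and 33.4% over all promoters. The medians of the promoters inside vehicle-only peaks thus stood near those of all promoters and below those under the peaks found in every list.

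Letters of known motifs were counted on both strands of the same windows, and a match is a description of the letters only. TGANTCA, the palindromic AP-1 motif, was found in 6.70% of the vehicle-only windows and in 7.81% of all promoter windows. TGTGGTT, the RUNX core, was found in 4.02% and 5.27%, and CACGTG, the palindromic E-box of MYC and its relatives, in 4.91% and 7.15%. TATAAA was found in 9.82% and 13.6%, and TGATGNAA, the amino acid response motif, in 1.79% and 3.97%. Each of these 5 shares was below that of all promoters, as were those of the windows under peaks overlapped in all 3 treated lists (6.80%, 3.11%, 6.02%, 9.84% and 2.14% in the same order). Of the 6 printed sequences, Plaur alone held TGANTCA, once.

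The vehicle-only peaks were narrow and weak by the authors' own measures. Their median width was 2199 bases, with a range from 228 to 11051, against 7999 bases for the 2265 vehicle peaks overlapped in all 3 treated lists. A wider peak has more bases that a treated peak can share, so the rule itself takes narrow peaks more readily. The contrast in width is therefore in part set by the rule. The authors' merged signal of the vehicle-only peaks had a median of 7.67, with a range from 7.001 to 22.6, against 10.96 in the peaks overlapped in all lists. At an IDR of 0.01 or less stood 1024 of the 4033 peaks (25.4%), against 81.5% of the peaks overlapped in all lists. The 2 replicate signals of a peak differed by more than 1.5 times in 30.1% of vehicle-only peaks and in 48.1% of peaks overlapped in all lists. Their medians were 3.75 and 3.73 in vehicle-only peaks, against 4.34 and 4.53. These shares compare peaks of unlike strength, so they do not rank the classes by reproducibility.

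**Figure D1:**
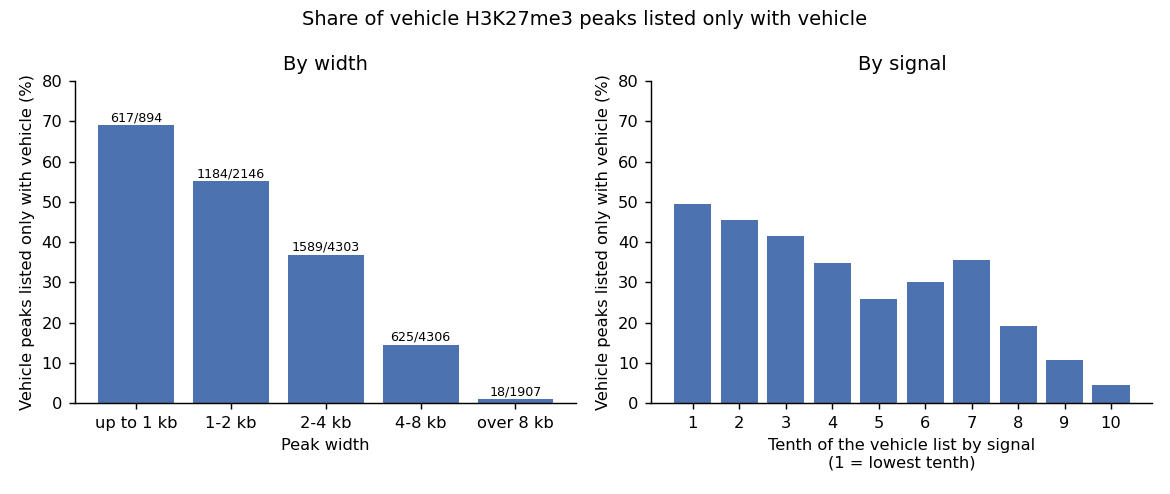
Share of vehicle H3K27me3 peaks that were listed only with vehicle (vertical axis, %), by peak width (left, with numbers of peaks above the bars) and by decile of the list ranked by the authors' signal (right). The share falls from 69.0% of peaks up to 1 kb to 0.944% of peaks over 8 kb, and from 49.5% in the lowest decile by signal to 4.65% in the highest. Both falls are in part set by the rule, which more readily takes narrow peaks and peaks near the IDR limit of the lists.

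As the plot by width and signal shows, 617 of the 894 vehicle peaks up to 1 kb wide were listed only with vehicle (69.0%), but 18 of the 1907 peaks over 8 kb (0.944%). By signal, the share was 49.5% in the lowest decile and 4.65% in the highest, with a second rise to 35.6% in the seventh. The treated lists also differed in length and in their weakest peak. The DON list held 3533 peaks with a lowest signal of 8.12, the glutamine-free list 8795 with 7.59, the CB-839 list 12417 with 7.12, and the vehicle list 13556 with 6.999. Of the vehicle-only peaks, 2498 (61.9%) had a signal under the lowest value in the DON list, 1873 (46.4%) under that of the glutamine-free list and 371 (9.20%) under that of the CB-839 list. The files do not say that signals of different lists are on 1 scale, and with merged lists a list's reach and a change in the mark cannot be told apart.

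The absences were not shared evenly among the treatments. Of the 13556 vehicle peaks, 2946 were missing with DON alone, and 2841 were overlapped in the CB-839 list alone. Only 132 were overlapped in the DON list alone. Without the CB-839 list the rule would take 6874 peaks. A shorter list overlaps fewer peaks, and the CB-839, glutamine-free and DON lists held 12417, 8795 and 3533. These counts therefore do not rank the treatments by loss of the mark.

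Many vehicle-only peaks had a treated peak close by. The median gap to the nearest treated peak was 10178 bases, and the gap was at most 1000 bases for 299 peaks (7.41%) and at most 5000 bases for 1374 (34.1%). The nearest treated peak was in the CB-839 list for 2669 peaks, in the glutamine-free list for 1137 and in the DON list for 227. This is also the order of the treated lists by length, and a longer list has more peaks that can be nearest. At the edge of the rule stood a peak beside Zfp518b (chr5:38684743-38686882), 2 bases from a glutamine-free peak. A peak inside Cd4 (chr6:124878673-124885126) lay 11 bases from a CB-839 peak. Just outside it, the vehicle peaks chr17:84809414-84815187, nearest Lrpprc, and chr19:40864835-40867090, nearest Zfp518a, shared 9 and 11 bases with a treated peak.

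By position the vehicle-only peaks were mostly away from gene starts. A base within 1000 bases of an annotated gene start was found in 583 of them (14.5%), while 571 touched an exon, 1006 (24.9%) lay in introns and 1873 (46.4%) lay between genes. Of the peaks overlapped in all 3 treated lists, 65.9% reached a promoter and 13.4% lay between genes. Of the 2946 peaks missing only with DON, 44.2% reached a promoter. A wider peak reaches more promoters, so the middle of the peak was also used. It lay within 1000 bases of a start in 5.98% of vehicle-only peaks and in 25.2% of those overlapped in all lists. Among peaks of 4 to 8 kb, the shares by the middle were 7.84% and 29.8%. The median distance from the middle to the nearest start was 10914 bases, against 2790.

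**Figure D2:**
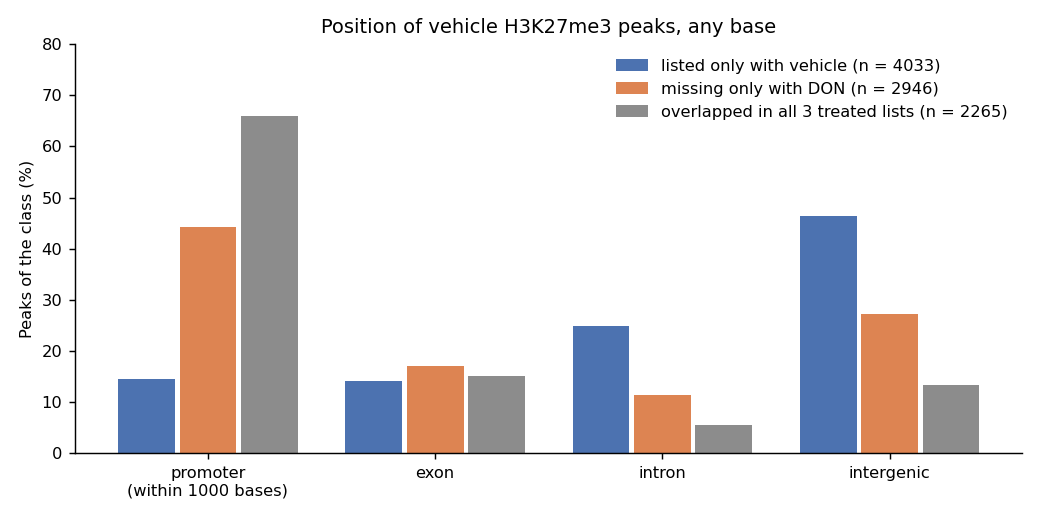
Position of vehicle H3K27me3 peaks (vertical axis, % of the class) in 4 exclusive places, by whether the peak was listed only with vehicle, missing only from the DON list, or overlapped in all 3 treated lists. Promoter means any base within 1000 bases of an annotated gene start; the vehicle-only peaks have the lowest promoter share (14.5%) and the highest intergenic share (46.4%).

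About as many peaks lay in gene bodies as outside them: 2024 (50.2%) overlapped an annotated gene, in 1749 genes. The genes that held most were long. Cep112 held 10 peaks over 435.4 kb, Dock3, a guanine nucleotide exchange factor, held 9 over 339.1 kb, and Pbx3, a homeobox cofactor of HOX proteins, held 7 over 201.7 kb. The longest run of vehicle-only peaks with gaps of at most 50 kb held 8 peaks and spanned chr2:34163248-34354729, over Pbx3. Ebf1, a B-cell lineage factor, held 6 peaks, and Mef2c, a transcription factor of muscle, brain and lymphocytes, held 5. By contrast 2095 peaks stood alone, with no other vehicle-only peak within 50 kb.

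The strongest vehicle-only peak was narrow, at 386 bases, and lay in an intron of Deptor, an inhibitor of mTOR (chr15:55160583-55160968), with a signal of 22.6. Among those at promoters, the strongest lay nearest Cdc42ep2 (chr19:5920355-5926042, signal 14.96), Cnnm1 (chr19:43437212-43444431, signal 14.4) and Odf1 (chr15:38219463-38225341, signal 14.3). Another, beside the proneural factor gene Ascl4 (chr10:85925419-85928191), had a signal of 14.2, and 1 beside the interferon gene Ifna9 (chr4:88590688-88595373) had 13.5. The 2 replicate signals were unequal at Cnnm1 (3.64 and 10.8) and Ascl4 (9.68 and 4.51). They were closer at Cdc42ep2 (7.81 and 7.15), Odf1 (7.42 and 6.91) and Ifna9 (6.95 and 6.50). The widest peak, of 11051 bases, was at chr8:128789872-128800922, over the start of the predicted gene Gm3952.

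H3K27ac, a mark of active promoters and enhancers that cannot occupy the same lysine as H3K27me3, was rarely listed at these peaks. In vehicle cells 16 of the 4033 peaks (0.397%) overlapped an H3K27ac peak, against 0.465% of all vehicle H3K27me3 peaks. In the glutamine-free list 4 peaks (0.099%) did so, and in the CB-839 and DON lists none did. Those 2 H3K27ac lists held only 117 and 33 peaks, against 9681 with vehicle and 6687 in glutamine-free medium. The 16 peaks with H3K27ac in vehicle included those at Wdr54, Nlgn2 and Pde5a, and 1 in an exon of Fosb, an AP-1 subunit.

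Lists of genes with known roles were set against the peaks, taking the outermost annotated start of each gene. Over all genes, 651 of 55487 had a vehicle-only peak there, or 320 of 20956 coding genes, so 0 or 1 gene in a short list is near that share. Of the 226 developmental homeobox, T-box, GATA, SOX, FOX and PAX genes, 1 had a vehicle-only peak at its start, Cdx4, a homeobox factor of the posterior body axis, whereas 145 had a peak overlapped in all 3 treated lists there. Of 85 WNT, BMP, FGF and hedgehog genes, none had a vehicle-only peak at the start and 33 had a peak overlapped in all lists. None of 12 Polycomb repressive complex 2 genes and 2 of 19 Polycomb repressive complex 1 genes, Phc1 and Phc2, had one at the start. Cr2, the complement receptor of B cells, was the 1 gene of 11 in the B-cell list. Cth was the 1 gene of 32 in the amino acid response list.

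None of the T-cell lists had such a peak at an outermost start, but some of their genes had one further inside. Among 29 effector and cytotoxic genes these were Prdm1, which encodes the effector regulator BLIMP1, with 3, Cx3cr1 with 2 and Fasl with 1. Among 15 inhibitory-receptor and Tox genes they were Tox2 and Entpd1. Among 22 genes of other T-helper lineages they included Cd4, Rora and Il5, and among 28 naive and memory genes Ccr9. The 3 in Prdm1 were at chr10:44442420-44444805, chr10:44458516-44459960 and chr10:44510512-44516135, the nearest 12366 bases from the outermost start, and the second of them held the promoter window of an internal RefSeq start (chr10:44458699-44458998). At Prdm1, Ccr9 and Tox2 a base within 1000 bases of the outermost start lay under a peak overlapped in all 3 treated lists.

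The RNA of genes at the vehicle-only peaks was read in the same groups at 48 h. RNA was not used by the rule. Within 1000 bases of a peak started 651 genes, 320 of them coding in RefSeq, and for 329 the peak covered the start. At 48 h 224 of the 651 passed the filter on low counts, and these had a median level of 2.41 log2 CPM against 3.85 for all genes tested. The others were not tested, so no statement covers all 651. The 224 passed through any of the 4 groups, and their counts below describe them beside all genes tested.

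With CB-839, 37 of the 224 genes rose and 9 fell by edgeR's quasi-likelihood test at a Benjamini-Hochberg adjusted p under 0.05. Rises were 16.5% of the 224, against a background of 8.5% of all 16173 genes tested, and falls were 4.02% against 6.73%. Both directions together were 20.5% against 15.2%. The share of rises was above the background at other vehicle peaks too. It was 10.6% at peaks overlapped in all lists, 9.39% at peaks missing only with DON and 13.8% at the remaining vehicle peaks. Falls there were 4.30%, 7.31% and 8.10%, and both directions together were 14.9%, 16.7% and 21.9%, in the same order. A raised share of rises was thus not particular to vehicle-only peaks. The difference between the classes was not tested. Of the 224, 2 rose by at least 2-fold, against a background of 0.612%, and 0 fell that far, against 0.767% (1.38% of all genes tested in both directions). The median log2 fold change of the 224 was 0.09, against -0.01 for all genes. The number called rested on the model, with 22 in a fit of the 8 libraries alone, 19 in a fit of all 52 libraries and 30 without CB-839 replicate A. In the fit of the 8 libraries with the replicate letter as a block it was 4, and without vehicle replicate C it was 53. The share called over all genes in those fits is not given here. The counts therefore do not say whether these genes moved apart from the rest.

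With DON, 86 genes rose and 71 fell (backgrounds 35.6% and 35.6%), or 70.1% of the 224 against 71.2% of all genes tested. In glutamine-free medium 70 rose and 56 fell (backgrounds 28% and 26.3%), or 56.2% against 54.3%. Without vehicle replicate C the genes called were 165 with DON and 130 in glutamine-free medium. The shares of 70.1% and 56.2% with every library stood near the background. At least 2-fold changes with DON were 40 rises and 20 falls (backgrounds 16.9% and 8.91%), or 26.8% against 25.8%. In glutamine-free medium they were 18 rises and 17 falls (backgrounds 6.69% and 4.62%), or 15.6% against 11.3%. The median log2 fold changes were 0.07 with DON and 0.01 in glutamine-free medium, against -0.00 and 0.02 for all genes. Scaling by library totals moved the median of all genes to 0.19 with DON and 0.12 in glutamine-free medium, and the split to 104 higher and 56 lower with DON and to 82 and 45 in glutamine-free medium. By comparison, of the 558 tested genes under peaks overlapped in all 3 treated lists, 44.4% rose with DON and 22.04% fell, with a median of 0.37. At the vehicle-only peaks these were 38.4% and 31.7%, with a median of 0.07, and the difference between the classes was not tested.

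**Figure D3:**
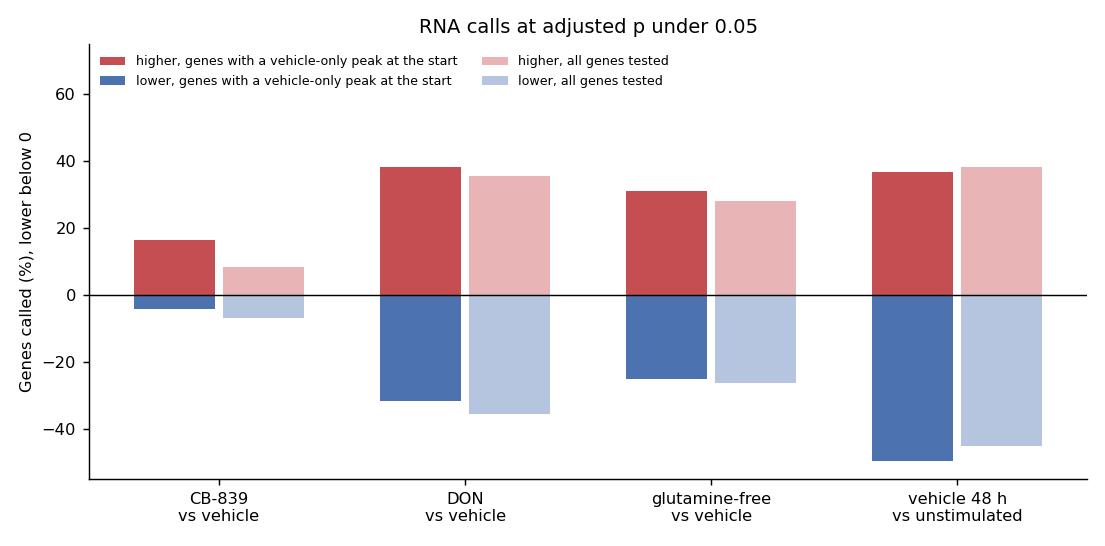
Share of genes called at an adjusted p under 0.05 (vertical axis, %; higher above 0, lower below 0) for genes with a vehicle-only peak within 1000 bases of the start (dark) and all genes tested (light), in 4 comparisons. With DON and in glutamine-free medium the dark and light bars total 70.1% against 71.2% and 56.2% against 54.3%.

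Cth rose in glutamine-free medium and fell with DON. It encodes cystathionine gamma-lyase, the enzyme that makes cysteine from cystathionine. Its vehicle-only peak (chr3:157921578-157924458, 2881 bases, signal 8.13) lay inside the gene, 619 bases from the start at position 157925077. The start itself stood between this peak and another vehicle peak at chr3:157925953-157933229, 876 bases upstream. The CB-839 and glutamine-free lists had an upstream peak as well, whose near edges were 849 and 861 bases from the start. In the DON list the upstream peak reached further, from 157924954 to 157935962, and covered the start; its edge was 495 bases from the vehicle-only peak. No H3K27ac list had a peak within 15000 bases.

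Cth RNA was at 18.3, 24.0, 20.3 and 23.4 CPM in the 4 vehicle libraries at 48 h. It was at 231, 238, 233 and 223 CPM in glutamine-free medium and at 3.21, 4.04, 5.09 and 4.37 CPM with DON. All glutamine-free libraries were above and all DON libraries below every vehicle library. The log2 fold changes were 3.47 (SE 0.14, edgeR adjusted p = 2.95e-12) in glutamine-free medium and -2.25 (SE 0.16, adjusted p = 4.84e-10) with DON. With CB-839 the libraries held 30.3, 19.7, 24.7 and 17.4 CPM, which overlapped the vehicle libraries (log2 fold change 0.10, SE 0.14, adjusted p = 0.708). So a vehicle peak missing from all 3 treated lists went with RNA that was higher, lower or not called.

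**Figure D4:**
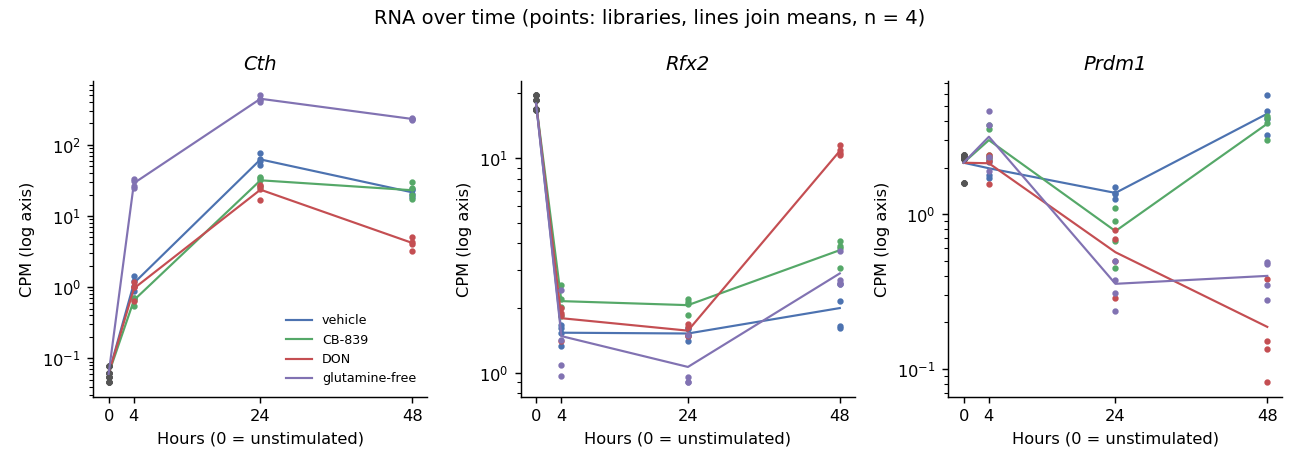
RNA of Cth, Rfx2 and Prdm1 (vertical axis, CPM on a log scale) against hours of culture (horizontal axis, 0 = unstimulated) with vehicle, CB-839, DON and in glutamine-free medium; points are the 4 libraries of a group and lines join the group means. Cth in glutamine-free medium lies above vehicle at 4 h, 24 h and 48 h, and with DON it lies below vehicle at 24 h and 48 h.

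Cth was also read at the other times. In unstimulated cells Cth was at 0.0457 to 0.0773 CPM. At 4 h the vehicle libraries held 0.890 to 1.44 CPM, the glutamine-free libraries 25.1 to 33.4 CPM and the CB-839 libraries 0.536 to 0.712 CPM. At 24 h the ranges were 51.7 to 76.1 CPM with vehicle, 405 to 496 CPM in glutamine-free medium, 25.5 to 34.8 CPM with CB-839 and 16.9 to 26.99 CPM with DON. The glutamine-free libraries thus stood above vehicle from 4 h on, and the CB-839 libraries below it at 4 h and 24 h but not at 48 h, whereas the peaks were measured at 48 h only. Differences at 4 h and 24 h were not tested.

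Genes that rose with DON included the transcription factor genes Npas2 and Rfx2. Npas2, a circadian clock factor, had 2 vehicle-only peaks on either side of its start, at chr1:39191948-39193379 and chr1:39194289-39195660. It stood at 1.17, 0.989, 0.931 and 1.203 CPM with vehicle and at 7.94, 8.40, 5.87 and 8.65 CPM with DON (log2 fold change 2.94, SE 0.16, edgeR adjusted p = 1.01e-11). It rose with CB-839 by 0.80 and did not pass the test in glutamine-free medium (0.15). Rfx2, a winged-helix factor of ciliated cells, rose with DON (2.53), with CB-839 (0.88) and in glutamine-free medium (0.57).

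The membrane protein genes Amigo2 and Slc15a2 rose both with DON and in glutamine-free medium. Amigo2, a cell adhesion protein, was at 2.58, 2.39, 3.40 and 3.76 CPM with vehicle. It was at 14.7, 16.1, 14.9 and 16.7 CPM with DON and at 21.2, 17.97, 15.4 and 24.6 CPM in glutamine-free medium, every one above vehicle. The log2 fold changes were 2.48 (SE 0.14, edgeR adjusted p = 1.91e-11) and 2.76 (SE 0.14, adjusted p = 2.07e-11). Slc15a2, the oligopeptide transporter PEPT2 whose CpG-poor upstream sequence is printed above, was at 1.73, 1.54, 0.899 and 1.504 CPM with vehicle. With DON it was at 7.61, 5.59, 7.25 and 6.84 CPM (log2 fold change 2.35, SE 0.16, edgeR adjusted p = 2.44e-10) and in glutamine-free medium it rose by 1.41. With CB-839 neither passed the test (Amigo2 0.25, Slc15a2 0.36).

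Other rises with DON were those of Ust, a sulfotransferase of glycosaminoglycans (2.43), Marcks, an actin-binding substrate of protein kinase C (2.40), and Gng7, a G protein gamma subunit (1.97). Gng7, printed above, rose with CB-839 too, from 0.632, 0.286, 0.578 and 0.602 CPM to 1.34, 1.09, 1.05 and 1.22 CPM (log2 fold change 1.16, SE 0.23, edgeR adjusted p = 0.00213). This was the largest rise with CB-839 among the named genes with a peak at the start, ahead of Jdp2, an AP-1 repressor (1.01), and Baiap3 (0.92). In glutamine-free medium the other large rises were H2-Bl, a class I histocompatibility gene whose reads may be shared with its close relatives (2.44), Carmil3 (1.63), the fatty acid elongase Elovl7 (1.44), the pyrophosphate transporter Ank (1.32) and Lmbr1 (1.02).

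**Figure D5:**
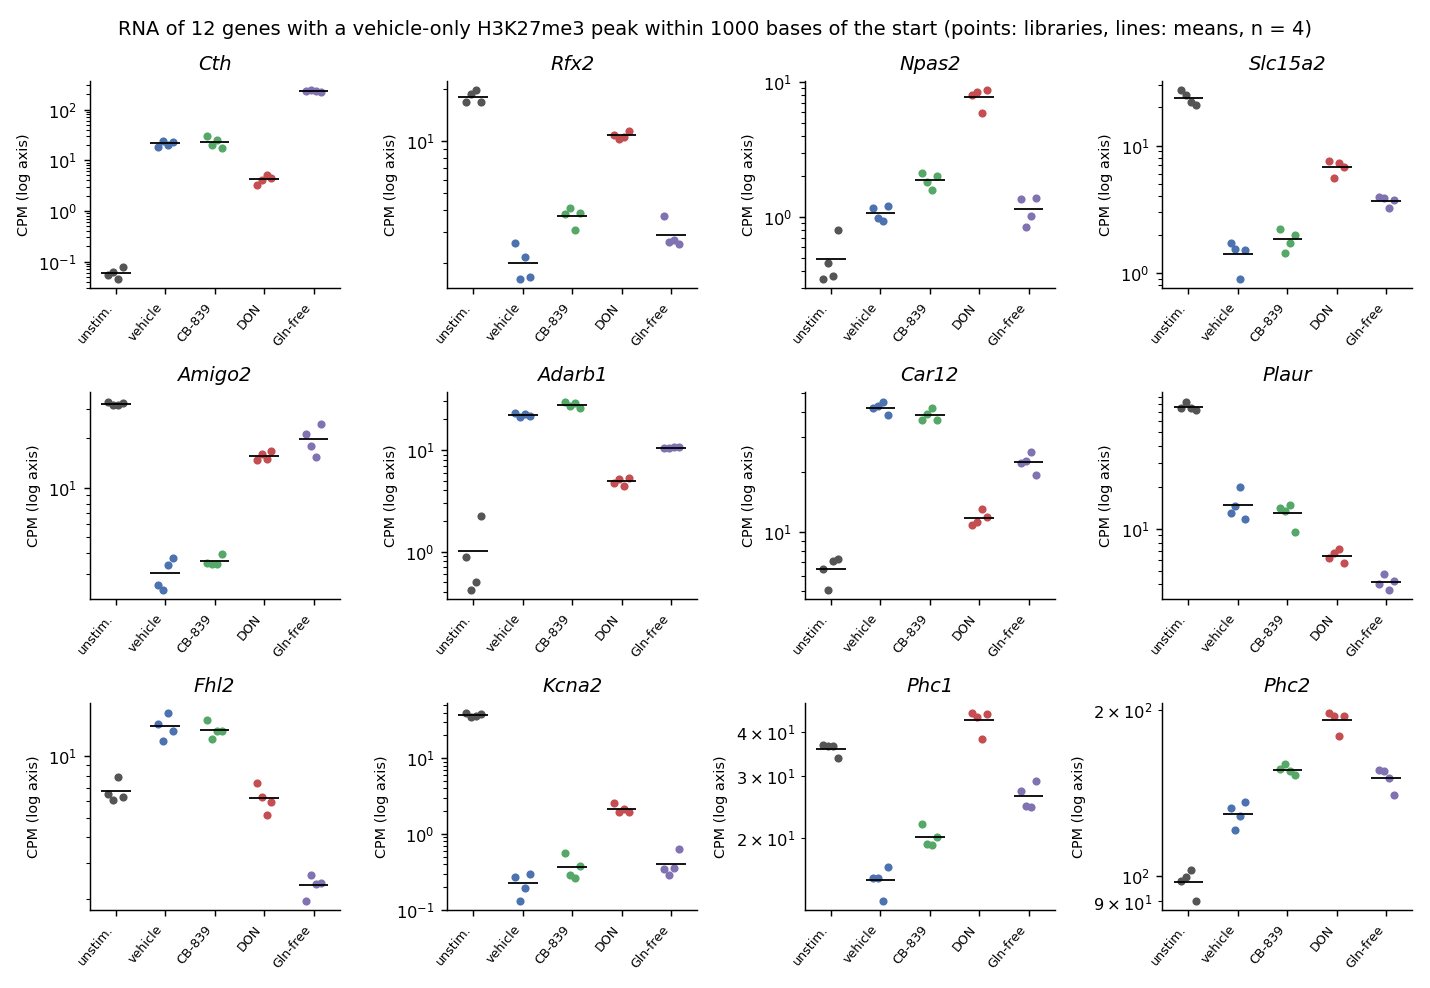
RNA (vertical axis, CPM on a log scale) of 12 genes with a vehicle-only peak within 1000 bases of the start, in unstimulated cells and the 4 groups at 48 h; points are libraries and lines are means of 4. Adarb1 and Car12 are lower with DON and in glutamine-free medium than with vehicle, Npas2 and Rfx2 are higher with DON, and Cth is higher in glutamine-free medium and lower with DON.

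Adarb1 fell with DON and in glutamine-free medium. It encodes the RNA-editing adenosine deaminase ADAR2, and its CpG-rich upstream sequence is printed above. It was at 23.03, 21.2, 22.4 and 21.8 CPM with vehicle, at 4.76, 5.21, 4.46 and 5.28 CPM with DON and at 10.4, 10.4, 10.8 and 10.6 CPM in glutamine-free medium. It fell by 2.06 on the log2 scale with DON (SE 0.07, edgeR adjusted p = 1.57e-14) and by 1.02 in glutamine-free medium (SE 0.06, adjusted p = 3.31e-10), and it rose with CB-839 by 0.34. Car12, a membrane carbonic anhydrase, was at 42.1, 42.97, 45.2 and 38.5 CPM with vehicle and at 10.7, 11.1, 12.97 and 11.8 CPM with DON. It fell by 1.75 on the log2 scale (SE 0.09, edgeR adjusted p = 3.04e-12).

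Plaur, the urokinase receptor, was at 13.04, 14.7, 19.98 and 11.8 CPM with vehicle and at 4.00, 4.76, 3.64 and 4.26 CPM in glutamine-free medium. It fell by 1.80 on the log2 scale in glutamine-free medium (SE 0.16, edgeR adjusted p = 3.15e-08) and by 1.11 with DON. Fhl2, a LIM-domain cofactor, had the largest fall in glutamine-free medium among the named genes with a peak at the start, from 14.4, 11.8, 16.3 and 13.3 CPM to 1.96, 2.62, 2.38 and 2.40 CPM, and its peak covered the start. It fell by 2.54 on the log2 scale (SE 0.13, edgeR adjusted p = 2.00e-11).

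Sh2b2, an adaptor of receptor kinases, fell by 1.49 with DON and by 1.28 in glutamine-free medium on the log2 scale. With DON the remaining named falls were Usp44, a deubiquitinase (-1.35), Wdr54 (-1.22) and Agrn, the proteoglycan agrin (-1.13). Of the exon bases of Wdr54, 27.1% are shared with Rtkn on the other strand, and its value is uncertain because the counting used no strand. Agrn went the other way elsewhere, rising with CB-839 (0.59) and in glutamine-free medium (0.55). In glutamine-free medium Slc35e4 (-2.32), Fah, the last enzyme of tyrosine breakdown (-1.83), Efemp2 (-1.13) and Actn2 (-1.0) also fell. Fah fell with CB-839 as well (-0.99) and rose with DON (0.78). The other falls with CB-839 were under 0.5 on the log2 scale: Mybl1 (-0.41), Axl (-0.41), Acp1 (-0.31), Vps36 (-0.18) and Tpm3 (-0.15). The calls of the last 2 were unsteady: that of Vps36 held in 6 of 16 alternative fits and that of Tpm3 in 10 of 16, and each was lost without CB-839 replicate A or C. Vps36 was also lost without CB-839 replicate B or vehicle replicate A or B, and Mybl1 without vehicle replicate B.

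The 2 Polycomb genes with a vehicle-only peak beside the start rose in all 3 treatments. Phc1, a PHC subunit of Polycomb repressive complex 1, was at 15.4, 15.4, 13.2 and 16.5 CPM with vehicle. It was at 45.4, 44.04, 38.2 and 45.2 CPM with DON, at 27.1, 24.6, 24.5 and 29.1 CPM in glutamine-free medium and at 21.9, 19.3, 19.1 and 20.1 CPM with CB-839. The order was vehicle, CB-839, glutamine-free, DON, and no neighbours in it overlapped. The log2 fold changes were 1.62 (SE 0.08, edgeR adjusted p = 1.34e-12), 0.84 (SE 0.08, adjusted p = 4.15e-08) and 0.40 (SE 0.08, adjusted p = 0.00177). Phc2 rose by 0.67, 0.25 and 0.26. Its peak, chr4:128655312-128657871, lay 610 bases after the start, and that of Phc1, chr6:122341243-122346225, lay 682 bases before it. Ezh2, the main enzyme that places the mark, had log2 fold changes of -0.18 (edgeR adjusted p = 0.0329) with DON, -0.17 (adjusted p = 0.140) with CB-839 and -0.09 (adjusted p = 0.336) in glutamine-free medium. These values depended on the libraries used. Without vehicle replicate C the values were -0.25 (edgeR adjusted p = 0.00371) with CB-839 and -0.17 (adjusted p = 0.0146) in glutamine-free medium, both past the threshold. The DON call was lost without vehicle replicate A or B and without DON replicate A, B or D, and held in 7 of 16 alternative fits. Scaling by library totals turned the log2 fold changes to 0.0015 with DON and 0.011 in glutamine-free medium. Of the 19 Polycomb repressive complex 1 genes, 6 rose and 1 fell with CB-839 (backgrounds 8.5% and 6.73%), 7 rose and 7 fell with DON (35.6% and 35.6%), and 9 rose and 5 fell in glutamine-free medium (28% and 26.3%). Of the 12 Polycomb repressive complex 2 genes, the same counts were 1 and 0, 2 and 6, and 3 and 2, against the same backgrounds.

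Genes with a vehicle-only peak inside them moved in both directions. Prdm1, with 3 such peaks, was at 4.65, 5.86, 3.24 and 4.09 CPM with vehicle. It was at 0.0815, 0.135, 0.378 and 0.152 CPM with DON and at 0.276, 0.476, 0.493 and 0.349 CPM in glutamine-free medium. It fell by 4.46 on the log2 scale with DON (SE 0.29, edgeR adjusted p = 1.14e-10) and by 3.47 in glutamine-free medium (SE 0.26, adjusted p = 2.71e-09), and did not pass the test with CB-839 (-0.22). Fasl, the death ligand of cytotoxic cells, fell by 1.97 with DON and by 2.33 in glutamine-free medium, and Fzd7, a WNT receptor, fell by 0.92 and 2.79.

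Ccr9, a gut-homing chemokine receptor that shares 21.5% of its exon bases with other genes, rose with DON by 4.82, from 0.0973 to 0.260 CPM with vehicle to 3.32 to 4.81 CPM. Its vehicle libraries stood near the floor, so the size of that rise is uncertain. Gpt2, the mitochondrial alanine aminotransferase, which uses glutamate, moved as Cth did in those groups: it rose in glutamine-free medium by 2.19, fell with DON by 1.66, and, unlike Cth, rose with CB-839 by 1.24. Of the 30 amino acid response genes tested, 29 rose and 1 fell in glutamine-free medium (backgrounds 28% and 26.3%), 2 rose and 27 fell with DON (35.6% and 35.6%), and 21 rose and 0 fell with CB-839 (8.5% and 6.73%), so Cth and Gpt2 stood among many genes of that list with no vehicle-only peak. Cd4, which held 2 vehicle-only peaks with signals of 14.3 and 13.3, was too low to test.

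Summed levels of markers of other cell types differed between some of these groups. The summed level of the CD8 T-cell markers was lower in glutamine-free medium than in every vehicle library. Thy1 was at 450.0 to 494 CPM against 900 to 1124 CPM, and Cd8a, Cd8b1, Cd2 and Cd3g were lower in every library too. Cd3d (323 to 345 against 271 to 363 CPM) and Cd3e (114 to 132 against 107 to 126 CPM) overlapped the vehicle libraries. The summed CPM of 3 CD4 T-cell markers (Cd4, Zbtb7b, Foxp3) was 4.19 to 5.81 with vehicle, 28.3 to 35.8 in glutamine-free medium and 7.53 to 10.0 with DON, led by Zbtb7b, while Cd4 stayed at or below 0.27. The sum of 6 myeloid markers was 2.16 to 3.24 with vehicle and 21.03 to 22.7 with DON, of which Cd68 gave 19.2 to 21.9. Lyz2 and Itgam were at or below 2.29 and 0.18 CPM in that group. The 6 B-cell markers summed to 2.89 to 3.97 with vehicle and 8.11 to 9.62 with DON, of which Cd79b gave 2.76 to 3.43 and 6.24 to 7.30. The part of these shifts in the results for the genes above was not tested. In bulk RNA a change in the number of cells of a type and a change in a gene's RNA per cell, also in the CD8 T cells, cannot be told apart.

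The last comparison asks how genes at the vehicle-only peaks had moved on activation without any treatment. From unstimulated cells to vehicle at 48 h, 95 of 259 tested genes rose and 128 fell by edgeR's quasi-likelihood test, or 224 in all without vehicle replicate C. Together these were 86.1%, against 83.4% of all 18317 genes tested. Rises were 36.7% against 38.3%, and falls were 49.4% against 45.1%. At least 2-fold changes were 58 rises and 99 falls (backgrounds 23.7% and 33.2%), or 60.6% against 56.9%. The median log2 fold change was -0.37, against -0.16 for all genes, which library totals moved to -0.44 with a split of 80 rises and 140 falls. Under peaks overlapped in all 3 treated lists it was -1.26, with 57.7% of tested genes falling. The vehicle libraries at 48 h are part of both this comparison and the treatment comparisons, so the values are given side by side only.

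The largest fall on activation among the named genes with a peak at the start was that of Kcna2. This gene of a voltage-gated potassium channel went from 39.9, 35.1, 36.3 and 38.8 CPM to 0.268, 0.130, 0.193 and 0.301 CPM, and its peak covered the start. It fell by 7.43 on the log2 scale (SE 0.17, edgeR adjusted p = 1.36e-17). The vehicle libraries stood near the floor for Kcna2, so the size of its fall is uncertain. Baiap3 (-6.38), the interferon-induced genes Oasl2 (-5.74) and Slfn5 (-5.49), the chemokine receptor Cxcr4 (-4.83) and Cyp2d22 (-4.83) fell too. Amigo2 and Slc15a2, which were higher with DON than with vehicle, had been at 31.9 to 33.4 CPM and 20.8 to 27.1 CPM in unstimulated cells.

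Among the named genes with a peak at the start, rises on activation were led by Cth (8.37, SE 0.23, edgeR adjusted p = 9.95e-17), Wdr54 (5.38), Adarb1 (4.44) and Bcam, the Lutheran adhesion protein (3.30). In unstimulated cells Cth (0.0457 to 0.0773 CPM) and Wdr54 (0.0368 to 0.137 CPM) stood near the floor, so the sizes of their rises are uncertain. Nlgn2, an adhesion protein of synapses, rose by 3.16 and Car12 by 2.65. At Wdr54 and Nlgn2 the same peak overlapped an H3K27ac peak in vehicle cells. So an H3K27me3 peak listed only with vehicle stood beside genes that activation had raised as well as beside genes whose RNA it had lowered.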

How the data were processed

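RNA-seq (52 libraries, 13 groups of 4) and CUT&RUN at 48 h were used. The deposited counts were made by the authors with featureCounts 2.0.1 on GENCODE M25 genes, with paired ends and no strand option, per the file headers, so overlapping antisense genes cannot be told apart. The deposited peak lists (mm10) are broad peaks merged from 2 replicates, and the submitters' processing notes name Bowtie2, MACS2, STAR, deepTools and FastQC without versions. Per the file layout, the authors' score, merged signal and −log10 IDR stand beside each peak, and the signal was used only to describe and rank peaks within a list.

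The members and the gene lists were chosen with earlier results of these data known. A gene was taken to have a peak at its start when a peak had a base within 1000 bases of the outermost annotated start. Counts were tested with edgeR 4.0.16 (quasi-likelihood, TMM scaling, filterByExpr, R 4.3.3) in 1 fit of the 16 libraries at 48 h and in a separate fit for activation, with Benjamini-Hochberg adjustment over all genes tested. The code was tested on simulated data. Printed CPM values share 1 TMM scaling over the 52 libraries. Libraries held 25626587 to 51005409 counts, so that 3 counts were worth 0.0588 to 0.117 CPM. DESeq2 1.42.0, other scalings, filters, windows, left-out libraries and a replicate block were alternatives. Named genes were, per treatment, up to 8 in each direction (6 on activation) with the largest change among named genes at a vehicle-only peak that passed the test with groups that did not overlap and had a mean level of at least 0 log2 CPM. Genes of the lists that hold such a peak are named too, and RNA values are given for some of them and for Ezh2, which were chosen after their values were seen. Peak sequences were not analysed here. Some named genes are not reported here.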

Additional observations from a re-analysis of the deposited data

Results flagged for a closer look

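In 6 of 100 groups of 4 libraries, 1 library lay far from the other 3 for a named gene, and chance gives about 1 in 20. In unstimulated cells, Wdr54 was highest in replicate C, at 0.137 CPM against 0.0368 to 0.0515 CPM in the others. Slfn5 was highest in replicate B, at 54.9 CPM against 30.9 to 33.3 CPM, and Cxcr4 was lowest there, at 52.3 CPM against 66.4 to 67.8 CPM. With vehicle at 48 h, Baiap3 was lowest in replicate A, at 0.900 CPM against 1.2 to 1.25 CPM. Gng7 was lowest in vehicle replicate B, at 0.286 CPM against 0.578 to 0.632 CPM, and Fah was highest in vehicle replicate C, at 4.14 CPM against 2.55 to 2.58 CPM.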

How the results depend on the processing

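The number of vehicle-only peaks moved with the lists: 1024 with an IDR of 0.01 for the vehicle list, 2109 with 0.01 in all lists, 2659 when a treated peak within 5000 bases counted as shared and 6874 without the CB-839 list. Those at promoters numbered 916 with a window of 2500 bases, 357 with 250 bases and 241 by the middle of the peak. With the window of 2500 bases, the genes called numbered 77 with CB-839, 263 with DON, 217 in glutamine-free medium and 383 on activation. A wider window takes in more genes, and the number tested in it is not given here. These counts therefore do not say whether the shares called moved. The 46 genes called with CB-839 became 22 in the fit of the 8 libraries compared and 19 in the fit of all 52 libraries. The share called over all genes in those fits is not given here, and the cause was not tested.

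Leaving out 1 library at a time gave 30 to 53 genes with CB-839, the lowest without CB-839 replicate A and the highest without vehicle replicate C. The ranges were 152 to 165 with DON, 117 to 130 in glutamine-free medium and 215 to 229 on activation. Shares over all genes in these fits are not given here, so the counts cannot be set against a background. Over the same fits the log2 fold change of Cth with CB-839 ranged from -0.065 to 0.20. In glutamine-free medium that of Ccr9 ranged from -0.15 to 0.58. Neither passed the test in the fit with every library. Scaling by library totals turned Ezh2 to 0.0015 with DON and 0.011 in glutamine-free medium.

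Whether the replicate letters pair the samples was not settled. Deviations of same-lettered libraries correlated by more than 0.1 in 0 of 4 letters with CB-839 and with DON. They did so in 1 letter in glutamine-free medium and in 2 on activation, where the 4 correlations ranged from 0.067 to 0.17. With the letter as a replicate block, 39, 156, 124 and 219 genes were called with CB-839, with DON, in glutamine-free medium and on activation. In the fit of the 8 libraries compared with the replicate block, 4 genes were called with CB-839. For the fits with a block, too, the share over all genes is not given here. Of 1452 alternatives over 91 results of single genes, 1400 kept the direction and side of the threshold, 44 no longer passed, 3 newly passed and 5 turned. Without vehicle replicate C, 89 of 91 kept both, and Ezh2 newly passed with CB-839 and in glutamine-free medium. Each peak list merges 2 replicates, so no error between replicates can be given for the presence of a peak.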
